A study of Mus musculus with 8 samples.

Results

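The DNA replication and mitosis genes described here are 45 genes taken from 2 lists, 23 of S phase (Mcm2 to Rpa1) and 22 of G2 and mitosis (Ccna2 to Aspm). They are 45 of the 23483 genes in the count table. Each was represented by the RefSeq transcript with the highest total count, all 45 had one, and all 45 were among the 13966 genes that passed the filter on low counts. The genes were listed by function and not by a rule on measured values, but they were chosen with earlier results of these data known.

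Poly(A) RNA was sequenced from C57BL/6 mouse cells in 4 groups of 2 libraries, all grown in 5.5 mM glucose. The first group was undifferentiated embryonic stem cells (mESC), kept with the cytokine LIF. The other 3 groups were Sca1 cells, sorted with magnetic beads after such stem cells had differentiated without LIF on gelatin: untreated Sca1 cells, cells given a non-target control shRNA (NTC), and cells given a Set7 shRNA (knock-down). Both shRNA groups, unlike the untreated cells, had been infected with lentivirus and selected with puromycin, so virus, selection and added time in culture are shared by NTC and knock-down and cannot be told apart in NTC against untreated cells. Setd7 is the gene of Set7, which methylates lysines of histone H3 and of other proteins, and the series asks what it does as stem cells become smooth muscle cells. The labels do not say that the 2 libraries of a group came from separate cultures, and the spread behind each p-value is that between these libraries and may be technical.

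Cells copy their DNA in S phase and divide in mitosis after G2. Origins of replication are prepared when the origin recognition complex, Cdc6 and Cdt1 load the Mcm2 to Mcm7 helicase, and Gmnn (geminin) holds Cdt1 back once replication has begun. In many cell types genes of S phase are switched on by E2F factors, and genes of G2 and mitosis by complexes that bind the CHR and CCAAT elements of their promoters. Mouse embryonic stem cells are known for fast division with a short G1, and G1 lengthens as they differentiate.

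The promoters show how the 2 lists differ in sequence. RefSeq promoter windows of 300 bases (250 before to 50 after the start, build GRCm38.p6) were found for 37 of the 45 genes, 19 of S phase and 18 of G2 and mitosis. The first listed window of each gene was taken, and its start need not be that of the counted transcript. For 31 of the 37, the bases 20 to 40 after the start were found in a transcript of the same gene. The Orc1 and Aspm windows lie downstream of the annotated gene starts (chr4:108575705 and chr1:139454188). Both strands were searched for 4 E2F words (TTTCCCGC, TTTGGCGC, TTTCGCGC and TTTGCCGC), the CHR word TTTGAA, the word CCAAT and the GC box GGGCGG, and a GC box can share bases with TTTCCCGC on the other strand. An E2F word lay in 8 of 19 S phase promoters (42.1%), in 1 of 18 G2 and mitosis promoters (5.56%, Cdk1) and in 2.32% of all 27025 windows. The CHR word lay in 13 of 18 G2 and mitosis promoters (72.2%), in 3 of 19 S phase promoters (15.8%) and in 18.1% of all windows. CCAAT was in 68.4% of S phase and 83.3% of G2 and mitosis promoters, against 37.9% of all, and the GC box in 73.7% and 83.3%, against 35.9%. No S phase promoter held both E2F and CHR words, and Cdk1 alone did so among the 18 others. A match is a description of letters and not a binding site.

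Windows of 30 bases around the E2F word nearest the start of each promoter follow, written 5′ to 3′ on the gene's strand. That word is in capitals, and a word on the other strand reads as its reverse complement. Any further word in a window, as in Mcm5, is not marked. Shown are the 8 S phase promoters with an E2F word (origin factors, helicase genes and the polymerase gene Pola1) and Cdk1, the only mitotic gene with it.
Orc1 (chr4:108579416-108579445, plus strand): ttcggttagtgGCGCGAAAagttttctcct
Cdc6 (chr11:98908002-98908031, plus strand): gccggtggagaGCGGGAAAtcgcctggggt
Cdt1 (chr8:122568035-122568064, plus strand): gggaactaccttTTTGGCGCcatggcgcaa
Mcm3 (chr1:20820275-20820304, minus strand): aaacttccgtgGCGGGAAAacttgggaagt
Mcm5 (chr8:75109349-75109378, plus strand): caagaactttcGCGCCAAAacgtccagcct
Mcm6 (chr1:128359734-128359763, minus strand): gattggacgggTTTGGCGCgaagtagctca
Mcm7 (chr5:138171849-138171878, minus strand): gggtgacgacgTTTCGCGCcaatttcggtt
Pola1 (chrX:93632275-93632304, minus strand): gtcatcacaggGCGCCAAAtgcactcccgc
Cdk1 (chr10:69353025-69353054, minus strand): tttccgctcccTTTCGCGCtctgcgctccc

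The CHR words of 9 of the 13 mitotic genes that have one are shown in the same way, as examples of the word that most of that list shares. For each of the 13 genes the CHR word nearest the start was taken, since some of these promoters hold 2. Its median position was 3 bases from the start, in a range from -98 to 41. The window of Anln holds a second CHR word, left in lower case.
Cdk1 (chr10:69352910-69352939, minus strand): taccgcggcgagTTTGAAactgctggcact
Ccnb2 (chr9:70421533-70421562, minus strand): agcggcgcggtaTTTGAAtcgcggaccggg
Top2a (chr11:99024195-99024224, minus strand): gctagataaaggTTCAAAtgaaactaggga
Mki67 (chr7:135716460-135716489, minus strand): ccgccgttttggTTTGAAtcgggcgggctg
Cdc20 (chr4:118437344-118437373, minus strand): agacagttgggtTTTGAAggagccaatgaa
Plk1 (chr7:122159453-122159482, plus strand): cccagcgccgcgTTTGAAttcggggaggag
Kif11 (chr19:37376351-37376380, plus strand): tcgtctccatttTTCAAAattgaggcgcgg
Anln (chr9:22389168-22389197, minus strand): ggggcgctgaaaTTCAAAttttgaacggcc
Aspm (chr1:139454767-139454796, plus strand): ggaggcgcgataTTTGAAccgagcaaaagc

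Levels below are counts scaled to library size by TMM (CPM), and each log2 fold change is given ± its standard error (SE). Counts summed over genes were 2507938 to 5080266 per library, and no member had fewer than 45 counts in any library. The labels give each library a code: 34 for mESC 1, untreated 1, NTC 2 and knock-down 2, 56 for mESC 2 and untreated 2, and 12 for NTC 1 and knock-down 1. Both code 56 libraries stand apart, with 8.63% and 8.97% of their counts in a ribosomal precursor transcript against 0.289% to 1.17% in the other 6. Setd7 was at 60.7 and 66.7 CPM in NTC and at 14.0 and 10.8 CPM in knock-down cells, a log2 change of -2.39 ± 0.20 (adjusted p = 1.71e-07, edgeR). Ly6a, which encodes Sca1, was at 4.42 to 13.0 CPM in the Sca1 cells and 5.72 and 9.85 CPM in mESC, and no rise was called (log2 0.24 ± 0.39 in untreated cells, edgeR adjusted p = 0.671).

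Transcripts of replication and mitosis were abundant in every group and moved little. The ratio of the highest to the lowest of the 8 libraries had a median of 1.44 over the 45 genes, from 1.13 for Cenpf to 2.10 for Aspm, and 30 of the 45 were under 1.5. Aspm alone was over 2. Among the 7786 tested genes with a mean level at least that of the lowest member, the median ratio was 1.59, 38.35% were under 1.5 and 22.42% were over 2. The lowest member (Dscc1, 25.25 CPM) lies well below most of the 45, and the sets were not matched for level. Per kilobase of transcript, the mean level over the 8 libraries was highest for Mcm2 (164 CPM per kb), Mcm3 (157) and Mcm5 (154), and lowest for Ccne2 (9.68) and Aspm (11.7).

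**Figure D1:**
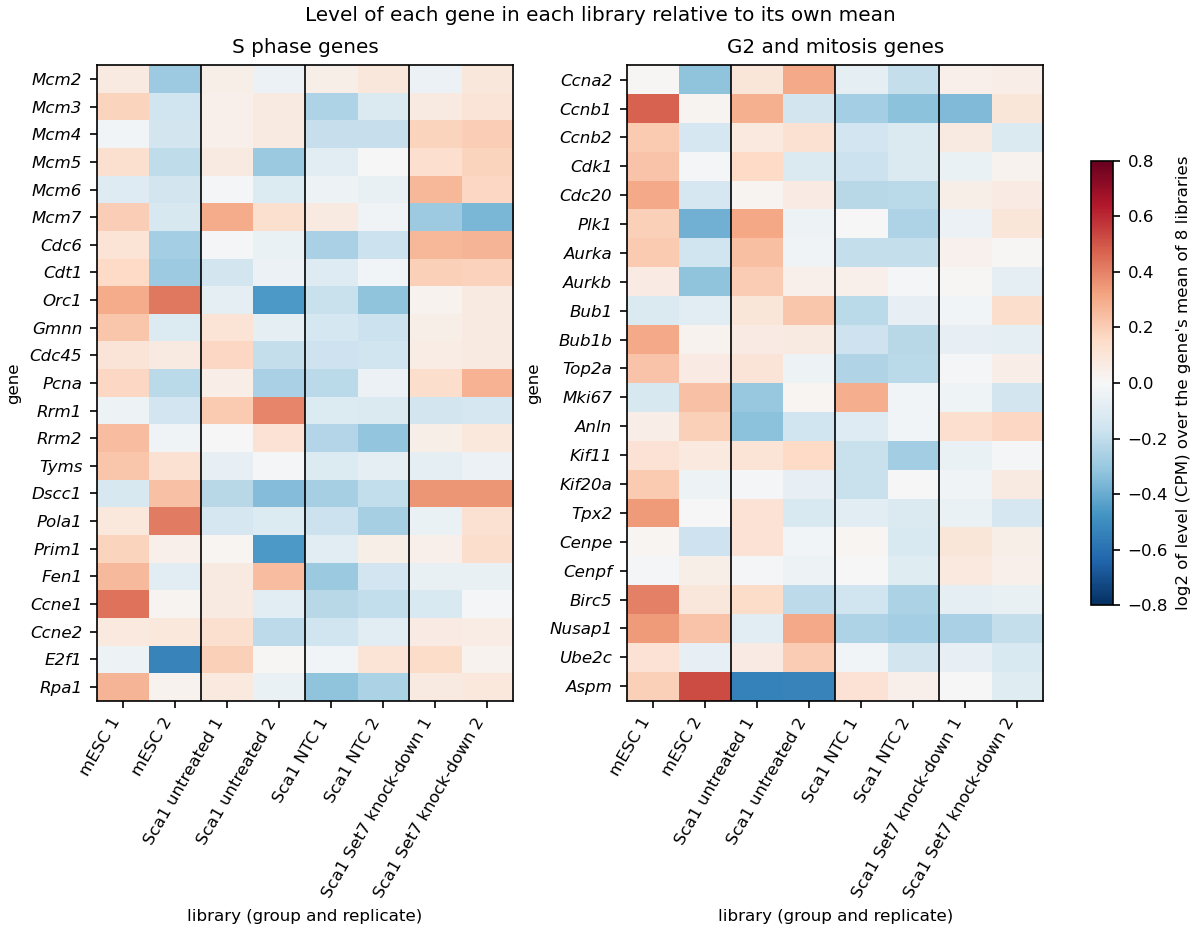
Level of each of the 45 genes in each of the 8 libraries as log2 of CPM over the gene's own mean (color), with genes in rows, S phase on the left and G2 and mitosis on the right, and libraries in columns by group and replicate. Most cells of the plot are pale, the dark cells of Aspm are the untreated Sca1 libraries (low) and mESC 2 (high), and both NTC columns are mainly blue.

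Summed over the 23 S phase genes, levels were 5455 and 4615 CPM in mESC, 5161 and 4866 in untreated Sca1 cells, 4526 and 4643 in NTC and 5157 and 5269 in knock-down cells. The mESC libraries span almost the whole range, and both NTC libraries lie below both knock-down libraries. The 22 G2 and mitosis genes summed to 4946 and 4449 CPM in mESC, 4495 and 4389 in untreated cells, 4101 and 3994 in NTC and 4361 and 4413 in knock-down cells. For this list both NTC libraries were below the other 6. Together the 45 genes took 0.863% to 1.04% of the scaled reads of a library. In these bulk samples fewer cells in a phase and less RNA per cell cannot be told apart.

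The balance between the phases varied within a narrow range. The ratio of summed S phase to summed G2 and mitosis levels was 1.07 ± 0.05 (SD, n = 2) in mESC, 1.13 ± 0.03 in untreated cells, 1.13 ± 0.04 in NTC and 1.19 ± 0.01 in knock-down cells. Single libraries ran from 1.04 (mESC 2) to 1.19 (knock-down 2). The knock-down libraries, at 1.18 and 1.19, had the highest ratios, and the next was NTC 2 at 1.16. With 2 libraries against 2, an exact permutation test of this single value cannot reach 0.05, so no p is given.

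**Figure D2:**
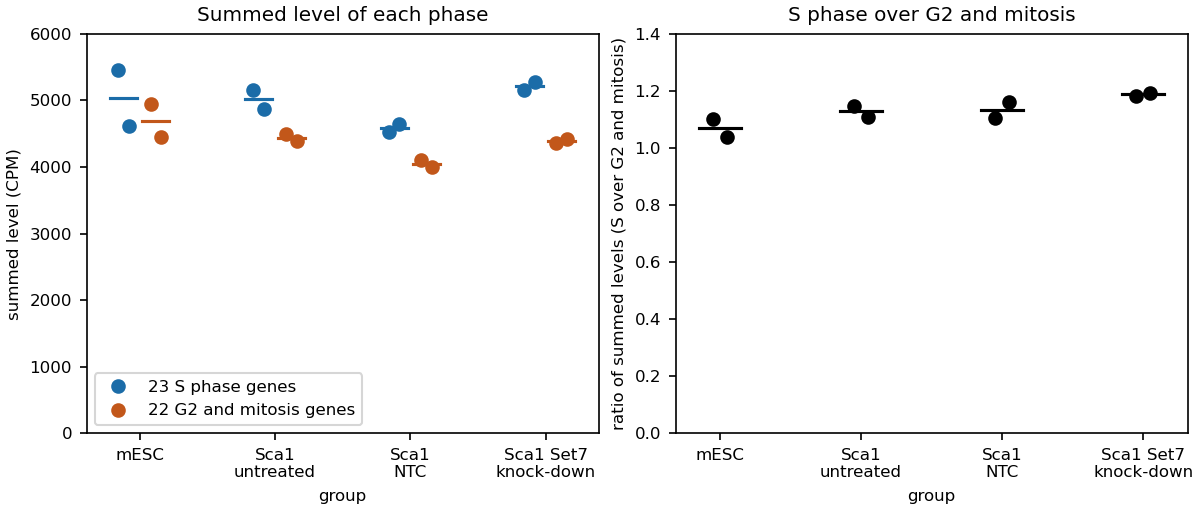
Left, summed level (CPM) of the 23 S phase genes (blue) and the 22 G2 and mitosis genes (orange) in each library by group, and right, their ratio in each library, with points for libraries and lines for group means. Both NTC libraries have the lowest G2 and mitosis sums (4101 and 3994 CPM), and the ratio lies between 1.04 and 1.19 in all 8 libraries.

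From mESC to untreated Sca1 cells, 6 of the 45 genes changed and 39 did not pass the test. Rrm1 and Ccna2 rose, and Orc1, Pola1, Anln and Aspm fell. Over all genes tested 35.5% were called in this comparison (18.7% higher, 16.8% lower), against 13.3% of the members (4.44% higher, 8.89% lower). A gene was called at an edgeR quasi-likelihood p of 0.05 after Benjamini-Hochberg adjustment over the 13966 genes. The median log2 fold change was -0.05 for S phase and -0.07 for G2 and mitosis genes, beside -0.01 for all genes. Only Orc1 and Aspm moved by more than 0.5 on the log2 scale in either direction, 4.44% of the members. All genes tested did so in 41.1% of cases. Of the 7791 tested genes with a mean over the 8 libraries at or above the lowest member's (Dscc1, 25.25 CPM), 26.8% did so. Most members lie well above that level. Smooth muscle markers moved far more between the same libraries. These 8 genes summed to 147 and 133 CPM in mESC and to 2166 and 1656 in untreated cells. The 8 pluripotency genes summed to 3640 and 3376 against 2362 and 2032 CPM, and 6 were called lower. Among the 6, Tdgf1 fell most (log2 -1.86), while Sox2 (-0.39) and Dppa5a (-0.41) moved about as much as some called members. Pou5f1 (-0.13) and Nanog (-0.06) were not called.

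**Figure D3:**
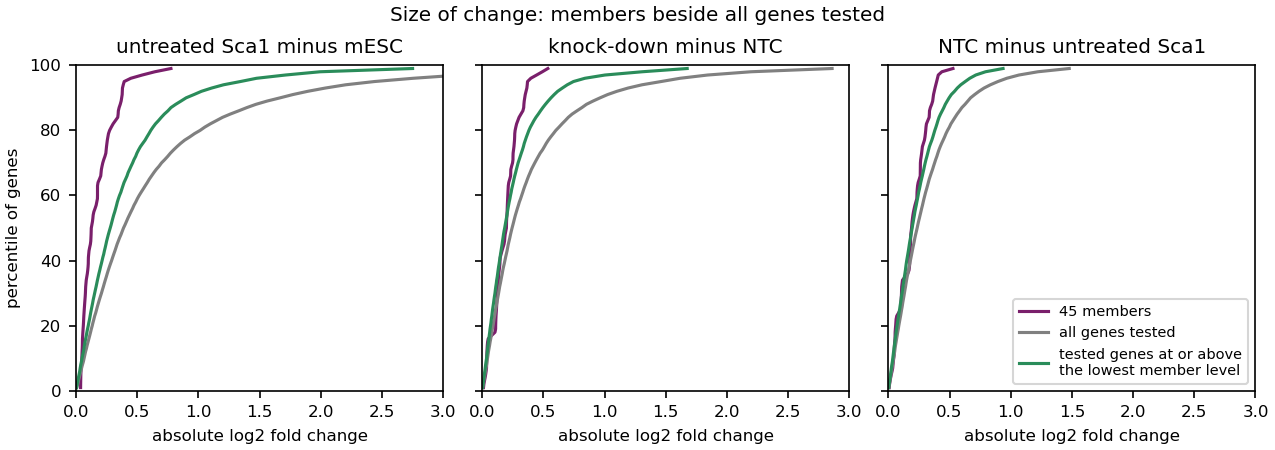
Percentile of genes (vertical) at or below a given absolute log2 fold change (horizontal) in 3 comparisons, for the 45 replication and mitosis genes (purple), all 13966 genes tested (grey) and tested genes at or above the lowest member level (green). The purple curve stands left of the others in untreated Sca1 against mESC, where 4.44% of the 45 genes and 41.1% of all genes exceed 0.5.

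Among the origin factors, Orc1, the largest subunit of the origin recognition complex, had 150 and 164 CPM in mESC and 116 and 88.8 CPM in untreated cells. All untreated, NTC and knock-down libraries were below both mESC libraries. The log2 change was -0.61 ± 0.13 (edgeR adjusted p = 0.00189), and within library codes it was -0.37 (34) and -0.88 (56). Orc1 exons overlap those of Gm12743 on the opposite strand, and since the strand of the counting is not given in the sources used here, reads of the 2 genes cannot be told apart. The other loading factors did not pass. Cdc6 was at 89.1 and 68.4 CPM in mESC and 81.9 and 79.5 in untreated cells, Cdt1 had a log2 difference of -0.05 ± 0.14, and Gmnn of -0.04 ± 0.13.

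None of the 6 subunits of the replicative helicase passed the test. Mcm2 was at 581 and 453 CPM in mESC and 572 and 535 in untreated cells, and Mcm3 at 537 and 426 against 488 and 499.7. Mcm4 was at 312 and 286 against 326 and 332.7, and Mcm5 at 567 and 450 against 546 and 423. Mcm6 was at 366 and 354 against 389 and 363, and Mcm7 at 282 and 225 against 303 and 269. In each gene except Mcm4 the libraries of the groups overlapped, and log2 differences ran from -0.07 for Mcm5 to 0.18 for Mcm7 with SE of 0.11 to 0.14. Their 95% intervals lie between -0.36 and 0.44.

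Among the genes of the fork and of nucleotide supply, Rrm1 rose and Pola1 fell. Rrm1, the large subunit of ribonucleotide reductase, which makes deoxynucleotides, had 278 and 257 CPM in mESC and 330 and 374 in untreated cells, without overlap. Its log2 rise was 0.40 ± 0.11 (edgeR adjusted p = 0.0111), and the call was lost under 3 of 18 alternatives, among them the fit without untreated replicate 2 (adjusted p of up to 0.0762). The small subunit Rrm2 gave no call, at 318 and 263 against 269 and 291 CPM. Pola1, the catalytic subunit of DNA polymerase alpha, had 128 and 161 CPM in mESC and 110 and 112 in untreated cells, a log2 change of -0.38 ± 0.13 (edgeR adjusted p = 0.0337). That call was lost under 11 of 18 alternatives, with adjusted p of up to 0.255, among them the fits without any 1 library other than mESC replicate 1. Pcna, the sliding clamp of the polymerases, had 182 and 140 CPM in mESC and 169 and 136 in untreated cells, and the libraries overlap. Prim1 (primase), Fen1 (flap endonuclease), Rpa1 (single-strand binding), Tyms (thymidylate synthase), Dscc1 (clamp loader), Cdc45 (helicase cofactor), the E cyclins Ccne1 and Ccne2 and the factor E2f1 did not pass. Their log2 differences lay between -0.34 (Dscc1) and 0.38 (E2f1), the latter with an interval of 0.04 to 0.72 and an edgeR adjusted p of 0.0791.

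Among the mitotic genes Aspm changed by the most. Aspm encodes a spindle pole protein needed for symmetric division of progenitors. It had 132 and 166 CPM in mESC, 79.1 and 79.5 in untreated cells, 125 and 119 in NTC and 115 and 108 in knock-down cells. The 2 untreated libraries differ by less than 1 CPM and lie below the other 6. The log2 change from mESC to untreated cells was -0.91 ± 0.13 (edgeR adjusted p = 4.61e-05), -0.73 within code 34 and -1.05 within code 56, and it kept its call in all 18 alternatives, as Orc1 did. Anln (anillin), a scaffold of the cytokinetic ring, had 269.5 and 296 CPM in mESC and 207 and 232 in untreated cells, without overlap, a log2 change of -0.37 ± 0.12 (edgeR adjusted p = 0.0197) that was lost without mESC replicate 2 or untreated replicate 1 (adjusted p of up to 0.126). Ccna2, the cyclin of S phase and G2, had 218 and 173 CPM in mESC and 231 and 267 in untreated cells, a log2 difference of 0.35 ± 0.13 (edgeR adjusted p = 0.0456), and its exons overlap those of Exosc9 on the opposite strand. This call was lost under 11 of 18 alternatives (adjusted p of up to 0.504), among them the fits without any 1 library other than mESC replicate 1 or untreated replicate 1.

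The remaining 19 mitotic genes gave no call. Cdk1, the mitotic kinase, had 236.5 and 199.6 CPM in mESC and 226 and 186 in untreated cells. Mki67, the proliferation marker Ki-67, had 308 and 395 CPM in mESC and 272 and 340 in untreated cells, each pair apart by more than the groups. The B cyclins Ccnb1 and Ccnb2, the kinases Plk1, Aurka and Aurkb, the checkpoint genes Bub1 and Bub1b, the ubiquitin ligase activator Cdc20 with its partner enzyme Ube2c, Top2a, the kinesins Kif11, Kif20a and Cenpe, and Tpx2, Cenpf, Birc5 and Nusap1 had log2 differences from -0.27 (Birc5) to 0.26 (Bub1). Without the code 56 libraries, where each of the 2 groups has 1 library that is assumed to vary like the others, 1 member rose (Rrm1) and 7 fell, beside 17.2% and 14.6% of all genes. These 7 were Cdt1, Orc1, Ccne1, Cdc20, Anln, Nusap1 and Aspm, so the fall of Pola1 and the rise of Ccna2 were not called there.

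**Figure D4:**
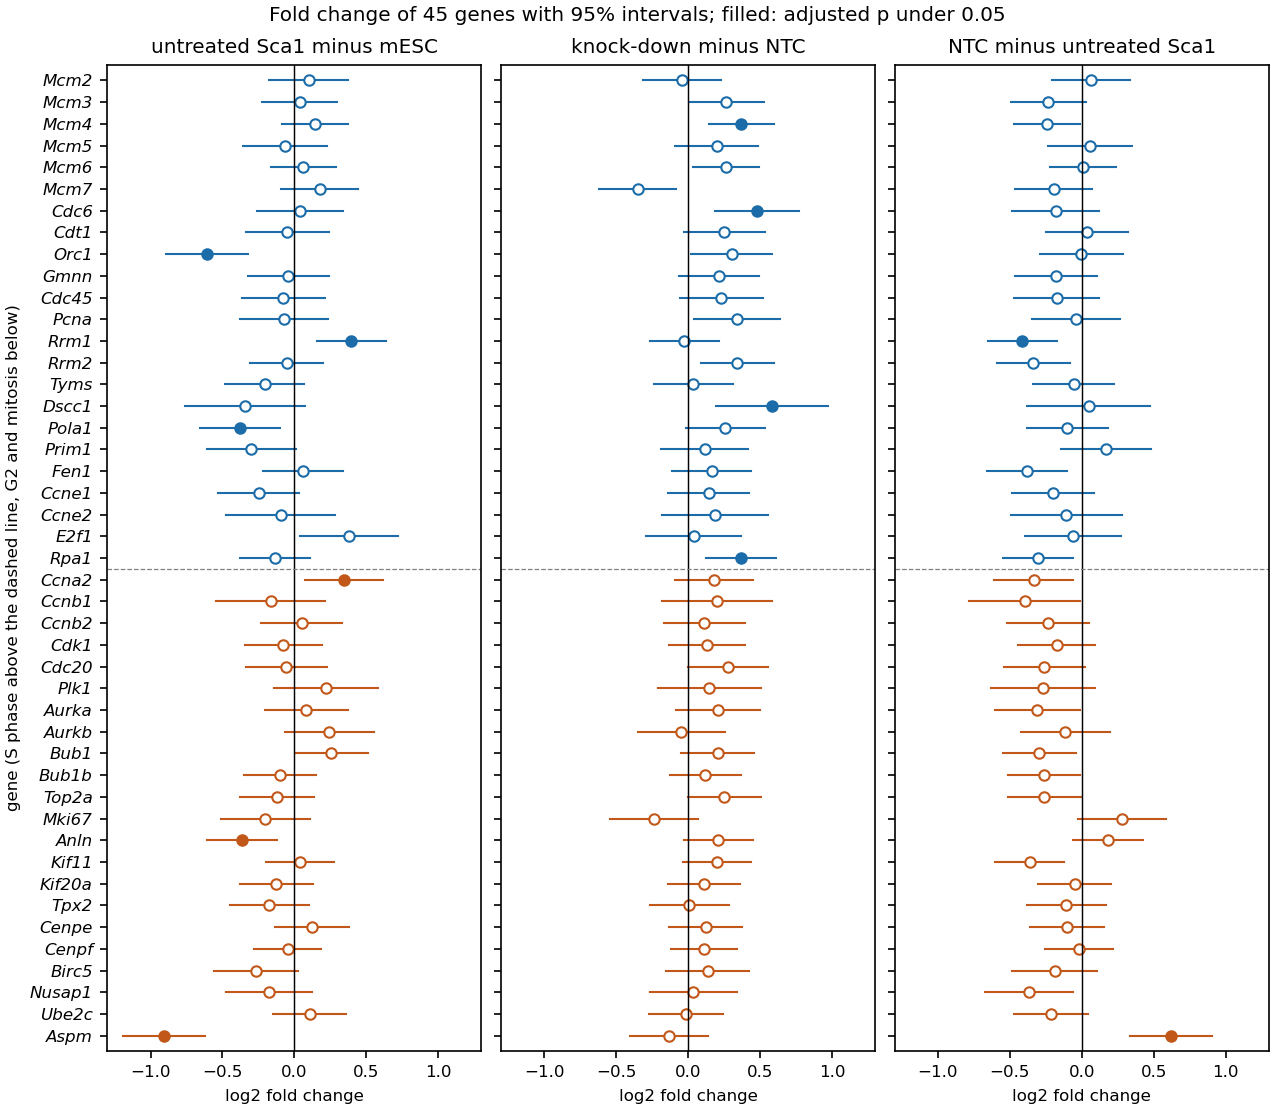
Log2 fold change (horizontal) of each of the 45 genes (vertical) with 95% intervals in 3 comparisons, S phase in blue above the dashed line and G2 and mitosis in orange below, filled where the adjusted p is under 0.05. In knock-down against NTC 38 of 45 points lie right of 0 and 4 are filled, and in NTC against untreated cells 36 of 45 lie left of 0 and 2 are filled.

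Genes of the same processes outside the 45 were taken from 3 further lists. Of 51 other replication genes, 1 rose and 15 fell from mESC to untreated cells (1.96% and 29.4%, beside 18.7% and 16.8% of all genes), with a median log2 change of -0.22. Tk1 (thymidine kinase) fell from 98.2 and 85.2 to 64.3 and 50.8 CPM (log2 -0.66 ± 0.15, edgeR adjusted p = 0.00249). Gins3, a helicase cofactor, fell by 0.74 on the log2 scale. Pole2 and Prim2, subunits of polymerase epsilon and of primase, fell by 0.71 and 0.53. The one that rose was Clspn (claspin, log2 0.36 ± 0.13), a call lost under 11 of 18 alternatives. Of the 15 falls, 9 lost their calls without untreated replicate 2, 7 without untreated replicate 1, 6 without mESC replicate 2 and 11 with the 2 groups fitted alone, and 2 (Tk1 and Gins3) kept them in all 18 alternatives. Of 55 other mitosis genes tested, 3 rose and 7 fell, with a median of -0.07. Cks1b, a binding partner of Cdk1, rose from 95.3 and 76.6 to 130 and 136 CPM (log2 0.63 ± 0.13), and Foxm1, a factor that activates mitotic genes, rose by 0.48 ± 0.13, a call that was lost without mESC replicate 2. Sgo1 (shugoshin), which protects centromere cohesion, fell from 113 and 135 to 68.3 and 71.1 CPM (log2 -0.84 ± 0.14). Mybl2, also an activator of mitotic genes, fell by 0.63, Cit (citron kinase) by 0.55 and Hmmr, a spindle protein, by 0.55 on the log2 scale.

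The list of regulators of G1, the interval before S phase, holds inhibitors, cyclins and factors. It is not limited to G1, since it includes the kinase genes Wee1 and Pkmyt1, and the E cyclins and E2f1 were counted among the 45 genes. Of 35 tested, 13 rose and 3 fell from mESC to untreated Sca1 cells (37.1% and 8.57%, beside 18.7% and 16.8% of all genes), with a median log2 change of 0.12. Gas1 (growth arrest specific 1) was at 0.687 and 1.10 CPM in mESC and 29.05 and 32.25 in untreated cells, a log2 rise of 5.04 ± 0.33. The cyclin-dependent kinase inhibitor gene Cdkn1c went from 6.41 and 5.28 to 62.4 and 76.9 CPM, a log2 rise of 3.56 ± 0.21 (edgeR adjusted p = 7.73e-10). Ccnd1 (cyclin D1) rose from 193 and 148 to 360 and 339 CPM (log2 1.03 ± 0.13), and Mycn from 62.7 and 39.4 to 122 and 152 CPM. Ccnd2 (cyclin D2) and the inhibitor genes Cdkn1a, Cdkn2a and Cdkn2b were also called higher, while Ccnd3 (cyclin D3), at 206 and 155 against 210.5 and 144 CPM, was not. Cdk2, the partner of the E cyclins, fell from 205 and 189.5 to 124 and 95.4 CPM (log2 -0.84 ± 0.13), and E2f2 fell by 1.35 on the log2 scale. Rbl2, a relative of the retinoblastoma protein, was the third that fell. With DESeq2, 3 of the 13 rises (E2f6, Cdkn1b and Ccng2) and 1 of the 3 falls (Rbl2) lost their calls.

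**Figure D5:**
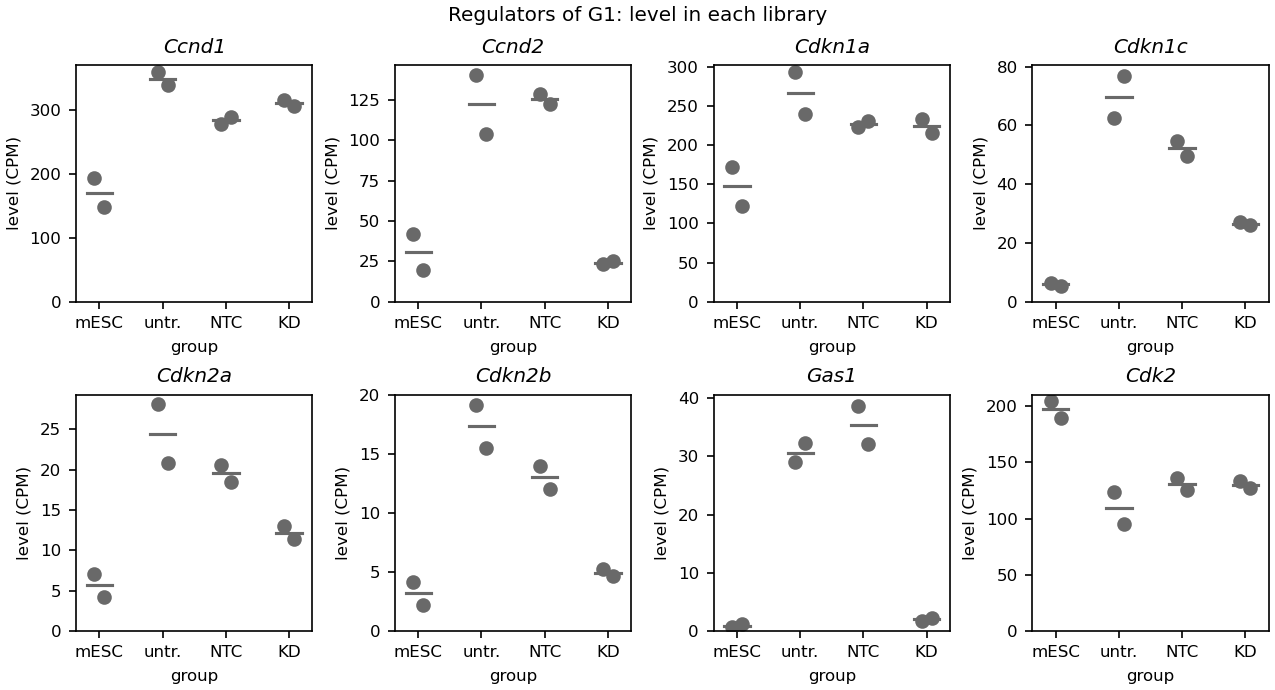
Level (CPM) of 8 regulators of G1 in each library (points) with group means (lines), for mESC, untreated Sca1 cells (untr.), NTC and Set7 knock-down (KD). Gas1 and Ccnd2 are high in untreated and NTC libraries and low in mESC and knock-down libraries, and Cdk2 is highest in mESC.

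Between knock-down and NTC cells, both shRNA groups, 4 of the 45 genes rose and none fell. The 4 were Mcm4, Cdc6, Dscc1 and Rpa1, all of S phase. They are 8.89% of the members, beside 14.3% of all genes called in either direction, 4.25% higher and 10.1% lower. At an unadjusted edgeR p of 0.05, 10 members were higher (22.2%, beside 10.6% of all genes; 9 of them of S phase). Mcm7 alone was lower by that rule (2.22%, beside 16.1%), and DESeq2 called 2 higher and none lower. The median log2 difference was 0.23 for S phase and 0.13 for G2 and mitosis genes, beside -0.00017 for all genes, and 20 of 23 and 18 of 22 were above 0. Both knock-down libraries lay above both NTC libraries in 31 of 45 genes (68.9%, 18 of them of S phase), beside 31.1% of all genes, and below them in 4, beside 32.9%. Within library codes the S phase median was 0.22 (code 12) and 0.22 (code 34), and the G2 and mitosis median 0.09 and 0.16.

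Mcm4 had 278 and 279 CPM in NTC and 358 and 363 in knock-down cells. The log2 rise was 0.37 ± 0.11 (edgeR adjusted p = 0.0283), with 312 and 286 CPM in mESC and 326 and 332.7 in untreated cells in between. Cdc6, which loads the helicase, had 69.0 and 73.3 CPM in NTC and 99.1 and 99.4 in knock-down cells, the highest of all groups. Its log2 rise was 0.48 ± 0.14 (edgeR adjusted p = 0.0260). Rpa1, which coats single-stranded DNA at the fork, had 308 and 324 CPM in NTC and 406 and 409 in knock-down cells, a rise of 0.37 ± 0.12 (edgeR adjusted p = 0.0431), while untreated cells had 408 and 372. The calls of Mcm4, Cdc6, Rpa1 and Dscc1 were lost when any 1 NTC or knock-down library was left out, with adjusted p of up to 0.771 over 19 alternatives.

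Dscc1, a subunit of a clamp loader used in sister chromatid cohesion, had 21.0 and 22.1 CPM in NTC and 32.2 and 32.3 in knock-down cells, a log2 rise of 0.58 ± 0.18 (edgeR adjusted p = 0.0434). It lies on chromosome 15, where the median log2 difference of the 425 genes at 10 CPM or more was 0.41 in this comparison. Relative to that median Dscc1 was higher by 0.17. Other chromosomes lay between -0.16 (chromosome 6) and 0.05. Whether the shift of chromosome 15 has a part in the rise of Dscc1 was not tested.

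The other helicase subunits were not called, and their differences did not all have the same sign. Whether the subunits differ from each other was not tested. Mcm3 (401 and 439 CPM in NTC, 499 and 511.5 in knock-down cells), Mcm5 (489.5 and 519 against 570.5 and 586) and Mcm6 (382 and 376 against 471 and 439) were higher in both knock-down libraries without passing, with log2 differences of 0.20 to 0.27. Mcm2 overlapped, at 570.5 and 588 against 536 and 589 CPM, and it lies on chromosome 6, where the median log2 difference was -0.16. Mcm7 was at 259 and 241 CPM in NTC and 201 and 191 in knock-down cells, the lowest of the 8 libraries, with a log2 difference of -0.35 ± 0.13 (edgeR adjusted p = 0.0760). Against untreated cells, at 303 and 269 CPM, the knock-down level of Mcm7 was lower, with a log2 difference of -0.55 (edgeR adjusted p = 0.00700). Mcm7 exons overlap those of Ap4m1 and Cops6 on the opposite strand. Pcna had 140 and 158 CPM in NTC and 179 and 197 in knock-down cells (log2 0.34 ± 0.14, edgeR adjusted p = 0.130), and Rrm2 had a difference of 0.34 ± 0.12.

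No mitotic gene passed in this comparison. Cdk1 was at 179 and 187 CPM in NTC and 195 and 206 in knock-down cells, without overlap, a log2 difference of 0.13 ± 0.13. Mki67 was at 410 and 331 CPM in NTC and 328 and 303 in knock-down cells (log2 -0.23 ± 0.14), and with Aspm (-0.13), Aurkb (-0.05) and Ube2c (-0.01) it was among the 4 below 0. The highest was Cdc20, the activator of the anaphase-promoting complex, at 182 and 183 CPM in NTC and 220 and 223 in knock-down cells (log2 0.28 ± 0.13, edgeR adjusted p = 0.186).

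The number of calls differed with the libraries that were fitted. A fit of the NTC and knock-down libraries alone called 18 members higher (12 of S phase, 6 of G2 and mitosis) and 2 lower (Mcm7 and Mki67), beside 14.7% and 18.0% of all genes tested there. Replicates of NTC and of knock-down cells differed less from each other than those of mESC and untreated cells (chi-square per degree of freedom 1.48 and 1.79 against 19.5 and 11.9 without the ribosomal precursor), and the shared estimate covers all 4. With the code 56 libraries left out the counts were also 18 and 2, beside 13.7% and 17.5%. With scaling by library totals only, no member was called higher, and 259 genes in all were called higher and 1154 lower (18.3% higher, beside 29.7% of calls higher with TMM).

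Compared with untreated Sca1 cells in place of NTC, the S phase median kept its direction and that of the mitotic genes turned. The S phase median was 0.06, with 17 of 23 above 0, and the G2 and mitosis median -0.10, with 7 of 22 above 0. Members passing the test were few, with Dscc1, Anln and Aspm called higher and Mcm7 and Rrm1 lower, beside 7.34% and 9.89% of all genes. Dscc1 was higher by 0.63 on the log2 scale, and the median of its chromosome 15 was 0.36 here. The part of that shift was not tested. This contrast shares the knock-down libraries with the one above and includes virus and selection.

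The NTC cells had the lowest levels of these genes in many cases. Against untreated cells Rrm1 fell and Aspm rose, and the other 43 members did not pass. That is 2.22% in each direction, beside 4.99% of all genes called in either direction, 1.11% lower and 3.88% higher. At an unadjusted edgeR p of 0.05, 13 members were lower (28.9%, beside 7.91% of all genes) and 1 was higher (2.22%, beside 12.5%). Rrm1 had 330 and 374 CPM in untreated cells and 264.5 and 264 in NTC, a log2 change of -0.41 ± 0.11 (edgeR adjusted p = 0.0436). Aspm rose by 0.62 ± 0.14 (edgeR adjusted p = 0.0139) from the untreated levels given above. The Aspm call was lost without any 1 of the untreated or NTC libraries (adjusted p of up to 0.188), and that of Rrm1 without untreated replicate 2 or any 1 NTC or knock-down library (up to 0.344).

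The medians were -0.11 for S phase and -0.23 for G2 and mitosis genes, beside 0.01 for all genes, and 17 of 23 and 19 of 22 were below 0. Both NTC libraries were below both untreated ones in 23 of 45 genes (51.1%, 12 of them of S phase), beside 24.0% of all genes, and above them in 2, beside 29.4%. The NTC group had the lowest mean of the 4 groups for 13 S phase and 15 mitotic genes (62.2% of the members, beside 20.9% of all genes). In 8 S phase and 5 mitotic genes both NTC libraries were below all 6 others (28.9%, beside 6.39%). Within code 34, the only code with both groups, the medians were -0.16 and -0.23. With scaling by library totals only, the median of all genes was 0.10 in this comparison and the S phase and mitotic medians were -0.02 and -0.13, and calls over all genes were 493 higher and 18 lower (96.5% higher, beside 77.8% with TMM). Without the code 56 libraries, which leaves 1 untreated library that is assumed to vary like the others, 18 members were called lower and 3 higher (Mki67, Anln and Aspm), beside 7.60% and 9.10% of all genes.

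Among the single genes behind these medians, Kif11, the motor that separates spindle poles, had 163.5 and 168.8 CPM in untreated cells and 133.5 and 125.0 in NTC, and 146 and 151 in knock-down cells. Top2a, the topoisomerase that untangles chromosomes, had 758 and 686 CPM in untreated cells, 597.5 and 608 in NTC and 701.5 and 733.5 in knock-down cells. Both genes passed in neither comparison with all libraries, and in both the NTC libraries were the lowest of the 8. The knock-down against NTC and the NTC against untreated comparisons share the NTC libraries, so a low NTC level enters both with opposite sign.

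In the wider lists more genes were higher than lower in knock-down against NTC cells. Of 51 other replication genes 5 were higher (9.80%, beside 4.25% of all genes) and none lower (beside 10.1%; edgeR, median log2 0.19). Timeless, a fork protection factor, rose from 104.5 and 105.7 to 176.5 and 168.4 CPM, a log2 rise of 0.71 ± 0.11 (edgeR adjusted p = 0.000290) that kept its call in all 19 alternatives. Its partner Tipin rose from 133 and 142 to 196 and 198 CPM (log2 0.52 ± 0.11), and Mcm10 was also called. The Tipin, Mcm10 and Recql4 calls were lost without any 1 NTC or knock-down library, and that of Mtbp without knock-down replicate 2. Mtbp, which acts in origin firing, rose by 0.91 ± 0.16 and Recql4 by 0.57 ± 0.15, both on chromosome 15. Of 55 other mitosis genes 6 rose (10.9%), among them Mybl2 (log2 0.50 ± 0.12) and, on chromosome 15, Racgap1 (0.60), Espl1 (0.56) and Gtse1 (0.47). Foxm1 alone fell (1.82%), from 156.7 and 162.5 to 105 and 108 CPM (log2 -0.58 ± 0.13, edgeR adjusted p = 0.00387), and it lies on chromosome 6. Each of these mitosis calls was lost without at least 2 of the 4 NTC and knock-down libraries, each left out alone. NTC cells differed from untreated cells in Cks1b, Smc4 and Spc25, which fell by 0.52, 0.48 and 0.49 on the log2 scale, and in none of the 51 replication genes (edgeR). These 3 calls were lost without any 1 NTC or knock-down library or without untreated replicate 2.

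Of the 35 G1 regulators 2 rose and 5 fell in knock-down against NTC cells (5.71% and 14.3%, beside 4.25% and 10.1% of all genes), and none was called in NTC against untreated cells (edgeR). Gas1 fell from 38.8 and 32.1 to 1.75 and 2.20 CPM, a log2 change of -4.11 ± 0.29 (edgeR adjusted p = 1.85e-08). Ccnd2 (cyclin D2) fell from 128.6 and 122.6 to 23.1 and 25.3 CPM, a change of -2.37 ± 0.27, and mESC had 41.7 and 19.6 CPM. Cdkn1c fell from 54.6 and 49.7 to 27.0 and 26.2 CPM (log2 -0.97 ± 0.17), and Cdkn2b, an inhibitor of the cyclin D kinases, fell by 1.41 on the log2 scale. Those that rose were Cdc25a, a phosphatase that activates Cdk2 (185 and 177 to 261 and 249 CPM, log2 0.50 ± 0.14), and Skp2, a ubiquitin ligase subunit that targets Cdkn1b (log2 0.64 ± 0.13), which lies on chromosome 15. The Cdc25a call was lost without any 1 of the NTC or knock-down libraries, and those of Skp2 and Cdkn2b without NTC replicate 1 or knock-down replicate 2. Gas1, Ccnd2 and Cdkn1c kept their calls in all 19 alternatives.

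Markers of cell state also differed between NTC and knock-down cells. The 8 smooth muscle markers summed to 1533 and 1570 CPM in NTC and 521 and 553 in knock-down cells, with none at 0. The 8 mesenchymal and fibroblast markers summed to 2285 and 2233 CPM in NTC and 207 and 205 in knock-down cells, with 2 and 1 at 0 there, and to 1463 and 1351 CPM in untreated cells. The 8 pluripotency markers summed to 2234 and 2172 CPM in NTC and 2904 and 2727 in knock-down cells. Pou5f1 was at 548 and 542 against 697 and 665 CPM (edgeR adjusted p = 0.175). Of these 8 only Sox2 was called (log2 0.48, edgeR adjusted p = 0.0170), and its call was lost without any 1 NTC or knock-down library. Klf4 was lower (log2 -0.38, edgeR adjusted p = 0.246). In NTC against untreated cells, the median log2 change was -0.40 for the smooth muscle markers and 0.68 for the 7 mesenchymal and fibroblast markers tested. For the pluripotency markers it was -0.02, beside -0.18 for the 45 genes. The part of all these markers in the differences of replication and mitosis genes was not tested.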

How the data were processed

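The deposited table gives read counts per transcript for 8 libraries, whole numbers with no scaling by the authors as far as the values show. BWA 0.5.9, SAMtools 0.1.17 and edgeR 0.19 are named in the submitters' processing notes, without their roles. No label or header names the genome build, counting program, annotation release or strand, which are thus not given in the sources used. RefSeq names matched 28985 of 29614 transcripts, GENCODE names 173 more, and 456 stayed unnamed and were not assigned to a gene symbol. The transcript with the highest total stood for each of 23483 genes, since several genes have identical values in all their transcripts.

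After filterByExpr and TMM scaling, edgeR 4.0.16 in R 4.3.3 fitted all 8 libraries by robust quasi-likelihood with a mean for each group (4 residual degrees of freedom, and a common dispersion of 0.0133). P-values were Benjamini-Hochberg adjusted over the 13966 genes tested, with calls at 0.05. The SE is the log2 fold change divided by the root of its F value. Within-code differences used log2 CPM with a prior count of 2. Simulated counts with known changes were used to check the code. DESeq2 1.42.0 and the other alternatives are given at the end.

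The members and lists were chosen with earlier results of these data known. Levels in every library were given by rule for Pcna, Mki67, Cdk1, the Mcm genes, called members and the called genes of smallest p in each further list, up to 4 in each direction. Kif11, Top2a, Rrm2, Cdc20, Mcm10, Ccnd3 and 4 G1 regulators (Ccnd2, Cdkn1a, Cdkn2a and Cdkn2b in untreated Sca1 against mESC) were named after their values were seen. Intervals cover the spread between libraries, and reads carry no molecular identifiers.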

Additional observations from a re-analysis of the deposited data

How the results depend on the processing

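Alternatives were RLE factors, library totals only, DESeq2, no filter, the compared groups fitted alone, summed transcript rows, blocks by either number, each library left out, and untreated cells as control of the knock-down. Leaving out both code 56 libraries, or the ribosomal precursor row, was chosen after seeing the data. Over single genes, 3917 values kept their side of the threshold, 371 lost and 112 gained a call, and none that was called changed direction.

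For untreated Sca1 against mESC, members called higher (2) became 0 with library totals, 1 with DESeq2, 0 with compared groups only, 4 with the description replicate block, and 1 with summed rows or without code 56. Members called lower (4) became 2, 7, 7 with totals or compared groups, the description block, and code 56 left out. Leaving out each library gave 3777 to 5695 called genes, 0 to 6 members higher, 3 to 5 lower, and medians of -0.15 to 0.11 (S phase) and -0.15 to 0.06 (G2 and mitosis).

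For knock-down against NTC, all calls (1998) became 1223 with DESeq2, 4416 with compared groups only and 4462 without code 56. Members higher (4) became 0 with totals, 2 with DESeq2 or summed rows, 18 with compared groups or without code 56, and 9 with the description block. Members lower (0) became 2 with compared groups, without code 56 or with untreated cells as control, and 1 with either block. With untreated cells as control the medians were 0.062 (S phase) and -0.10 (G2 and mitosis). Leaving out each library gave 648 to 2826 called genes, 0 to 9 members higher, 0 to 1 lower, and medians of 0.20 to 0.23 and 0.11 to 0.15.

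For NTC against untreated cells, all calls (697) became 1148 without the filter, 1261 with the description block and 2386 without code 56. Members higher (1) became 2 with that block and 3 without code 56. Members lower (1) became 0 with totals or summed rows, 3 with compared groups, 7 with the block and 18 without code 56. The S phase median (-0.11) was -0.023 with totals, -0.21 with the block and -0.21 without code 56, and the G2 and mitosis median (-0.23) was -0.13 with totals and -0.29 with the block. Leaving out each library gave 57 to 1517 called genes, 0 to 1 members higher, 0 to 6 lower, and medians of -0.20 to -0.074 and -0.23 to -0.11.

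The log2 ratio of summed S phase to G2 and mitosis levels (0.10, 0.17, 0.18 and 0.25 in mESC, untreated, NTC and knock-down cells) was 0.020, 0.083 and 0.31 in mESC, untreated and knock-down cells from median log2 levels. With summed rows, which count identical transcripts repeatedly, it was -0.27, -0.19, -0.20 and -0.10. The cause of the other shifts was not tested. Libraries of the same title number deviated together in mESC and untreated cells (correlation 0.33) and in NTC and knock-down cells (0.18) but not in the other pairs of groups (-0.067 to -0.013). In those first 2 pairs of groups they also share a library code, whose meaning the labels do not give. The title replicate block moved no other count by over 1.5 times. Replicates limit precision, with a median SE of 0.13 over the members.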

Other observations

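Within the replicates of mESC, the difference between library 2 and library 1 varied with transcript length over the 45 genes. The 36 genes with transcripts under 4500 bases had a median log2 difference of -0.32, with 4 above 0, and the 9 longer ones a median of 0.05, with 5 above 0. Among the longer ones Mki67 was at 308 and 395 CPM and Aspm at 132 and 166, and among the shorter ones Plk1 was at 127 and 85.4 CPM and E2f1 at 68.2 and 48.4. Across the 45 genes, which are not independent replicates and share both libraries, the correlation of the difference with log2 length was 0.45 (Pearson) and 0.46 (Spearman), given as a description. The same correlation was 0.24 and 0.24 in untreated cells, -0.30 and -0.21 in NTC, and -0.10 and 0.01 in knock-down cells. The median absolute difference between replicates was 0.32 in mESC, 0.16 in untreated cells, 0.08 in NTC and 0.04 in knock-down cells. The second mESC and untreated libraries are those with code 56.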
